A study of Homo sapiens with 12 samples.

Results

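Polyadenylated RNA of 22Rv1 cells exposed for 24 h to an autophagy-activating ligand (libraries titled 22Rv1_1021) was compared directly with that of cells exposed for 24 h to enzalutamide. The 6 libraries of these groups, 3 per agent, were chosen from the 12 of the series by their labels. 22Rv1 is an established prostate cancer line that grows without added androgen. Doses are not given in the sources used here. The other libraries were 3 from vehicle-treated cells and 3 from cells treated with a degrader (titled 22Rv1_2024), all from the same line and the same exposure time. They entered the filter, the scaling and the estimate of spread, and their levels are given as a reference. The replicates of a group were described by the submitters as biologically independent. All groups came from 1 cell line in culture, so the values describe that line.

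Enzalutamide is an antiandrogen drug used against prostate cancer, and prostate cells depend on androgen signalling for a characteristic set of transcripts, among them the kallikrein proteases and the co-chaperone gene FKBP5. Autophagy delivers cytoplasmic cargo to lysosomes for breakdown, with cargo receptors such as the SQSTM1 product bound to proteins of the ATG8 family, and TFEB-type transcription factors drive many lysosomal genes. Sterol synthesis is controlled by membrane-bound transcription factors, the SREBPs, which are released when sterol in the endoplasmic reticulum is low. INSIG1 holds them back, and the enzymes of the mevalonate pathway are among their known targets.

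The ligand libraries held 55.5 to 71.8 M counted reads and the enzalutamide libraries 59.4 to 69.3 M. All 7 luminal epithelial markers checked were present, with a summed level of 2274 to 2494 TPM in the 6 ligand and enzalutamide libraries. Of 4 basal markers 1 was listed, at 0.415 to 0.652 TPM, and none of 3 endothelial markers was listed. Of 6 stromal markers 4 were listed, with a summed level of 24.6 to 26.9 TPM in these libraries. Of 3 immune markers 1, CD68, was listed, at 8.44 to 10.6 TPM. Of 4 neuroendocrine markers 2 were listed, with a summed level of 65.6 to 69.5 TPM. The table lists only genes with at least 1 read in each library. In a principal component analysis of the 6 libraries the first component, with 25.9% of the variance, placed enzalutamide replicates at -17.5, -10.3 and -9.24 and ligand replicates at 11.5, 1.34 and 24.3. On this component ligand replicates 2 and 3 lay further apart than ligand replicate 2 and the nearest enzalutamide library. The second component, with 23.0% of the variance, did not separate the agents. It placed ligand replicates at 18.2, 15.1 and -15.1 and enzalutamide replicates at 5.07, -12.0 and -11.3.

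Of 46 androgen-response genes 18, and of 25 sterol synthesis genes 18, were higher with the ligand than with enzalutamide, and a smaller set that included BAMBI, TRIB1, NFKBIZ and the AKR1C genes was lower. FKBP5, CHRNA2, SLC45A3 and MBOAT2 were 2.31, 2.30, 2.37 and 2.66 times as high with the ligand. INSIG1 and HMGCS1 were 1.91 and 1.82 times as high, and BAMBI was 1.97 times lower. By the quasi-likelihood test of edgeR, 361 of 17702 genes (2.04%) differed at a Benjamini-Hochberg adjusted p under 0.05. Of these 243 (1.37% of all genes) were higher and 118 (0.667%) lower with the ligand. The differences were mostly small: the median absolute log2 fold change of the called genes was 0.41, and 24 higher and 5 lower genes reached 1 or more. All log2 fold changes are ligand minus enzalutamide unless another pair is named. In parentheses after a gene's levels stand its log2 fold change, where given its SE or 95% confidence interval, and the adjusted p. A gene given by 1 value is given by its log2 fold change, with the adjusted p or, as a range, the 95% confidence interval in parentheses. For 13017 genes (73.5%) the 95% confidence interval of the difference lay within 0.5 of 0 on the log2 scale. Of 11779 genes with at least 5 CPM (library-scaled read counts) in either group, 11410 (96.9%) did so. Between the 3 ligand and the 3 enzalutamide libraries levels did not overlap for 2239 genes (12.6%), the 361 called genes among them. The count of called genes fell when any 1 ligand or enzalutamide library was left out. Without enzalutamide replicate 3 it was 229, with 18 genes past the fold minimum in place of 29. Without enzalutamide replicate 1 the latter count was 19. The 5 lower genes past the fold minimum were 1 without enzalutamide replicate 1 or 3, 2 without ligand replicate 2, and 3 without ligand replicate 1 or enzalutamide replicate 2. The count of lower genes was 66 and 75 without ligand replicates 1 and 2, and 64, 73 and 54 without enzalutamide replicates 1, 2 and 3.

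**Figure D1:**
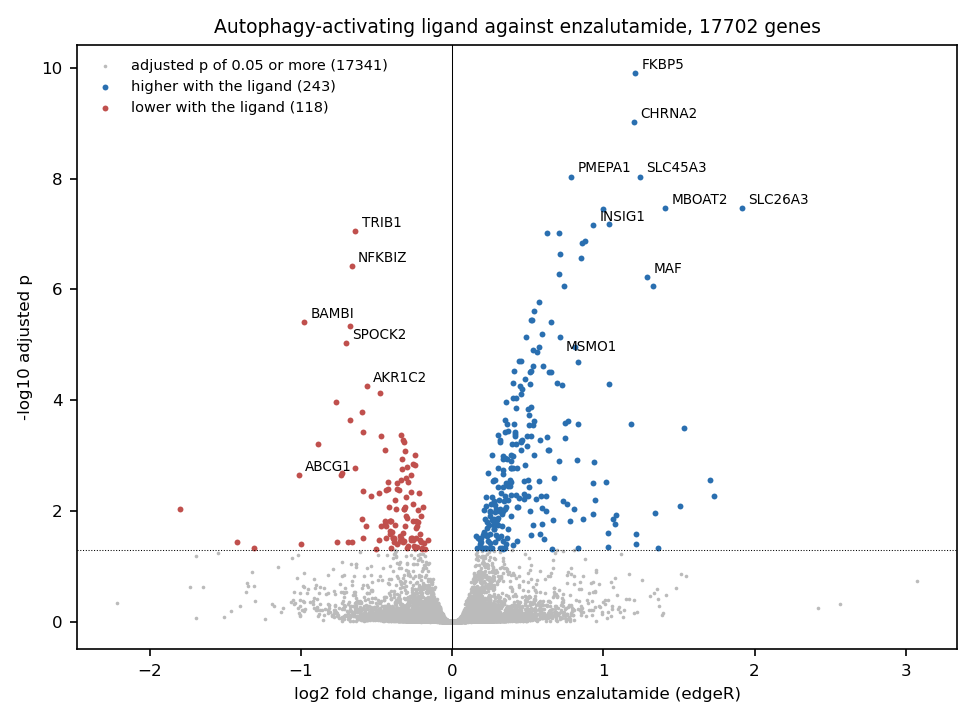
Log2 fold change of 17702 genes, ligand minus enzalutamide, against the -log10 of the adjusted p from edgeR. Blue points mark the 243 genes higher with the ligand and red points the 118 lower, the dotted line marks an adjusted p of 0.05, and FKBP5 stands highest.

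All androgen-response genes that edgeR called were higher with the ligand. Of 46 tested, 18 were higher, none was lower and 28 were not called, against 1.37% and 0.667% of all genes. At an unadjusted p under 0.05, 25 were higher and 1 lower, and DESeq2 called 1 lower and limma-voom none. The median log2 fold change was 0.18, against 0.00 over all genes. Levels of 26 members were higher in every ligand library than in any enzalutamide library, and 1 was lower throughout, where 6.56% and 6.08% of all genes did so. In bulk RNA of this kind, fewer cells of a type and less RNA per cell cannot be told apart. The list was composed with earlier results of these data known.

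FKBP5, the co-chaperone gene, was at 881, 866 and 937 CPM with the ligand and 369.8, 399 and 391 CPM with enzalutamide. The groups were far apart, and vehicle, at 922 ± 18.7 CPM (mean ± SD, n = 3), lay with the ligand, while the degrader, at 459.5 ± 10.3 CPM, lay near enzalutamide. The log2 fold change was 1.21 (SE 0.05, adjusted p = 1.24e-10). SLC45A3, which encodes the prostate membrane transporter prostein, was at 87.7, 85 and 86.4 CPM with the ligand and 35.4, 34.2 and 39.6 CPM with enzalutamide. All ligand libraries were above all enzalutamide libraries, and the difference was 1.24 on the log2 scale (SE 0.07, 9.25e-09). MBOAT2, an acyltransferase of membrane phospholipids, was at 57.5, 49.7 and 65.3 CPM and 21.6, 20.6 and 22.7 CPM, which made it the member with the largest difference (1.41, SE 0.08, 3.43e-08). The ligand replicates of MBOAT2 spread more widely than those of enzalutamide but did not reach them.

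PMEPA1, which encodes an inhibitor of transforming growth factor beta signalling, was at 437, 453 and 442 CPM with the ligand and 257, 253 and 261 CPM with enzalutamide (0.79, SE 0.04, adjusted p = 9.25e-09). The degrader did not lie with enzalutamide here: its 425 ± 14 CPM was close to the vehicle level of 399 ± 14.3 CPM. NKILA, a long noncoding RNA transcribed beside PMEPA1 on the opposite strand, was at 19.1, 18.3 and 18.9 CPM and 9.29, 9.14 and 8.97 CPM (1.04, 6.75e-08). Whether the counting used the strand is not given in the sources used here, so reads of the pair may not be told apart. ZBTB16, a zinc-finger transcription factor, was at 131, 139.9 and 141 CPM with the ligand and 85.5, 81.6 and 84.9 CPM with enzalutamide (0.71, 9.69e-08), with the degrader at 92.5 ± 0.911 CPM. MAF, a leucine-zipper transcription factor, was at 8.20, 6.79 and 8.46 CPM and 3.40, 3.11 and 3.08 CPM (1.29, 5.95e-07), which was a low level with no overlap between the agents.

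The other higher members reached 1.18 for PGC, the pepsinogen C gene. They included AKAP12, a scaffold of protein kinase A (0.75), STEAP2, a metalloreductase (0.62), INPP4B, a lipid phosphatase (0.58), HPGD, which degrades prostaglandins (0.51), and ELL2, an elongation factor (0.39). EAF2, an ELL-associated factor, was at 1.09, the cytokine receptor gene LIFR at 0.40 and HERC3, a ubiquitin ligase gene, at 0.30. Each of these lost its call in some fits with 1 library left out. The adjusted p of EAF2 was 0.0984 and 0.0934 without ligand replicate 1 and enzalutamide replicate 3. That of LIFR was 0.108, 0.161, 0.199 and 0.172 without ligand replicates 1 and 3 and enzalutamide replicates 1 and 2. That of HERC3 was 0.0606, 0.0552 and 0.0525 without ligand replicate 1 and enzalutamide replicates 1 and 3.

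The protease genes KLK3, KLK2 and TMPRSS2 of this list were not called, while PGC, named above, was. KLK3, which encodes prostate-specific antigen, was at 18.8, 19.5 and 19.3 CPM with the ligand and 17.4, 16 and 17.2 CPM with enzalutamide. The groups did not overlap, but the difference of 0.19 (95% confidence interval 0.05 to 0.33) did not pass the test (adjusted p = 0.252). KLK2, the related protease gene, was at 57, 58.6 and 55.2 CPM and 58.1, 49.2 and 52.3 CPM, and the groups overlapped (0.10, -0.03 to 0.23, 0.744). Against the vehicle level of 71 ± 2.73 CPM both agents had lower KLK2, by -0.32 with the ligand (adjusted p = 0.0331) and -0.42 with enzalutamide (0.000794). These contrasts share the vehicle libraries. The ligand call did not hold without any 1 vehicle library (adjusted p = 0.145, 0.101 and 0.152 without replicates 1, 2 and 3) or any 1 ligand library (0.161, 0.0846 and 0.0771), while the enzalutamide call held in each case where 1 vehicle or enzalutamide library was left out. TMPRSS2, a protease gene known from prostate gene fusions, was at 48.2, 50.2 and 48.4 CPM and 46, 42.6 and 44.2 CPM (0.14, 0.04 to 0.25, 0.236). For KLK3, KLK2 and TMPRSS2 the intervals end below 0.33 on the log2 scale, far under the difference seen for FKBP5.

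Against vehicle, where 1.44% of all genes were called for enzalutamide and 0.237% for the ligand, 21 of the 46 androgen-response genes were lower with enzalutamide (1.09% of all genes) and none was higher (0.35%), with a median of -0.28. With the ligand 1 was higher (0.203%) and 1, KLK2, lower (0.0339%), with a median of -0.06. The count of higher members was 0 without any 1 vehicle library and without ligand replicate 1 or 2. KLK2 lost its call without any 1 of the vehicle or ligand libraries, with adjusted p from 0.0771 without ligand replicate 3 to 0.161 without ligand replicate 1. Both contrasts use the same vehicle libraries, so they are given side by side and not compared. The mean log2 CPM over the list was 5.87, 5.82 and 5.91 in the ligand libraries, 5.53, 5.53 and 5.52 in the enzalutamide libraries and 5.93, 5.90 and 5.95 in the vehicle libraries.

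**Figure D2:**
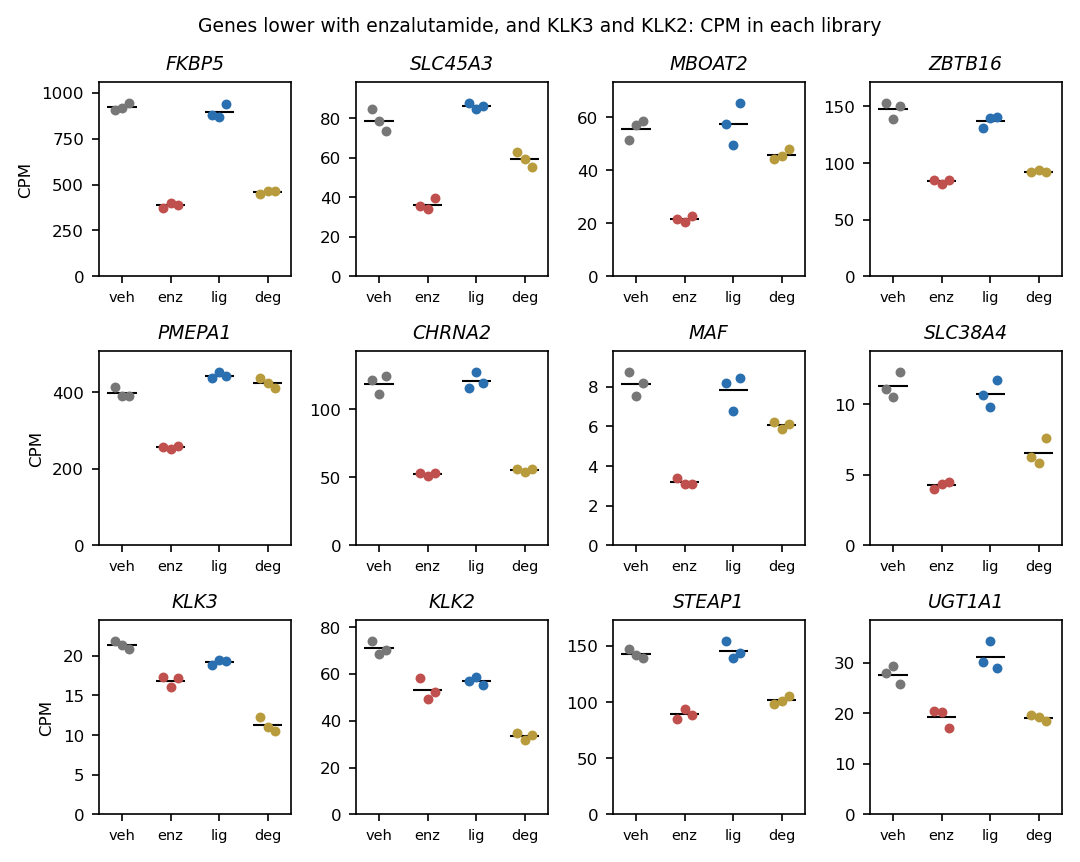
CPM in each library (points) and group mean (line) for 12 genes under vehicle (veh), enzalutamide (enz), the ligand (lig) and the degrader (deg), on linear axes from 0. For FKBP5 to SLC38A4, STEAP1 and UGT1A1 the ligand points lie near vehicle and above enzalutamide, while for KLK2 ligand and enzalutamide points overlap.

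Several of the largest differences lay outside the androgen-response list. SLC26A3, a chloride and bicarbonate exchanger, was at 6.47, 6.01 and 6.89 CPM with the ligand and 1.74, 1.73 and 1.66 CPM with enzalutamide, the largest rise among the genes with at least 5 CPM chosen by the naming rule (1.92, SE 0.11, adjusted p = 3.43e-08). CHRNA2, a subunit of the nicotinic acetylcholine receptor, was at 115, 127 and 119 CPM and 53.1, 51.2 and 53.1 CPM (1.20, 9.54e-10), and its replicates were tight in both groups. SLC38A4, an amino acid transporter gene, was at 10.7, 9.79 and 11.7 CPM and 4.01, 4.32 and 4.47 CPM (1.33, 8.6e-07). All of these had a vehicle level near that of the ligand, at 6.72 ± 0.302, 119 ± 6.92 and 11.3 ± 0.885 CPM. RAB3B, a GTPase of secretory vesicles, was at 95.6, 101 and 109 CPM with the ligand and 49.2, 52.3 and 51.3 CPM with enzalutamide (1.00, 3.5e-08). The nuclear receptor gene NR5A2 was at 4.76, 5.10 and 5.48 CPM and 2.20, 2.89 and 2.38 CPM (1.04, 5.1e-05). The growth factor gene IGF1 was at 10.7, 11.3 and 15.8 CPM and 5.75, 6.74 and 7.12 CPM (0.94, 0.00131), with ligand replicate 3 well above the other two.

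Of 19 luminal markers, 3 were higher (1.37% of all genes) and 1 lower (0.667%), with a median of 0.07. The higher ones were SLC45A3, STEAP1 and STEAP2. The count of lower markers was 2 without enzalutamide replicate 1 and by DESeq2. STEAP1, a membrane protein gene of prostate epithelium, was at 154, 139.6 and 144 CPM with the ligand and 85.3, 93.6 and 88.3 CPM with enzalutamide (0.71, 2.34e-07), without overlap. The lower one was GATA2, a transcription factor gene, at 141, 153 and 132 CPM and 206, 190.4 and 196 CPM (-0.48, 7.34e-05). Vehicle was at 158 ± 2.44 CPM for GATA2, between the agents. None of 15 basal and stromal, 8 neuroendocrine and 3 immune and endothelial markers was called by edgeR or limma-voom. At an unadjusted p under 0.05, 3 basal and stromal markers were higher and 2 lower, 1 neuroendocrine marker was lower, and DESeq2 called 1 basal and stromal marker in each direction.

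Glucocorticoid receptor targets, many of which androgen signalling also turns on, were higher for 7 of 17 members (1.37% of all genes) and lower for none (0.667%), with a median of 0.24. DESeq2 and limma-voom called none lower, and none was lower at an unadjusted p under 0.05. Besides FKBP5 and ZBTB16, which are also on the androgen-response list, they were KLF9, ERRFI1, MT1X, MT2A and PER1. KLF9, a zinc-finger repressor, was at 30, 28.4 and 30.4 CPM with the ligand and 20.5, 20.4 and 20.8 CPM with enzalutamide (0.52, 2.93e-05). ERRFI1, an inhibitor of the epidermal growth factor receptor, was at 38.6, 36.3 and 40.2 CPM and 28.7, 28.2 and 29 CPM (0.42, 0.00014). For both, the vehicle levels of 31.5 ± 1.40 and 40.3 ± 1.11 CPM were near those of the ligand. The metallothionein gene MT1X, whose product binds zinc and copper, had another pattern: it was at 25.1, 21.6 and 19.4 CPM with the ligand, 17.4, 14.7 and 13.1 CPM with enzalutamide and 15.9 ± 0.264 CPM with vehicle (0.55, 0.0061). The circadian gene PER1 was at 0.33 and MT2A at 0.34. The adjusted p of PER1 was 0.0838, 0.0787 and 0.0912 without ligand replicates 1 and 2 and enzalutamide replicate 2. That of MT2A was 0.206, 0.122, 0.135 and 0.174 without ligand replicates 1 and 2 and enzalutamide replicates 2 and 3.

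Of 14 androgen-repressed genes edgeR called 3 higher with the ligand (1.37% of all genes) and none lower (0.667%), with a median of 0.01. At an unadjusted p under 0.05, 5 were higher and 3 lower. DESeq2 called 4 higher and 1 lower, and limma-voom 2 higher and none lower. The count of higher members was 1 without ligand replicate 1 or 3 or enzalutamide replicate 2. Levels of 3 members were lower in every ligand library than in any enzalutamide library (6.08% of all genes): the cadherin gene CDH2 at -0.38 (0.0565) and the glucuronosyltransferase genes UGT2B15 at -0.26 (0.124) and UGT2B17 at -0.26 (0.543), none of them called by edgeR. The higher ones were UGT1A1, UGT1A3 and UGT2B11, glucuronosyltransferases that conjugate bilirubin, steroids and drugs. UGT1A1 was at 30.2, 34.3 and 29.1 CPM with the ligand and 20.5, 20.3 and 17.1 CPM with enzalutamide (0.70, 4.95e-05), and vehicle was at 27.7 ± 1.81 CPM. UGT1A1 and UGT1A3 share exons, so reads may not be told apart between them. UGT1A3 was at 0.83 (0.0467), and its adjusted p was 0.195, 0.139, 0.0967, 0.188 and 0.183 without ligand replicates 1 and 3 and enzalutamide replicates 1, 2 and 3. UGT2B11, at 1.67 ± 0.322 and 0.873 ± 0.0869 CPM, was at 0.93 (0.0114), with 0.0616, 0.0502 and 0.0736 without ligand replicates 1 and 3 and enzalutamide replicate 2. Against vehicle, enzalutamide had 3 of the 14 lower (1.09% of all genes) and 1, CDH2, higher (0.35%), at 0.43 (edgeR adjusted p = 0.0327). The lower ones were UGT1A1 at -0.52 (0.00115), UGT1A3 at -1.07 (0.00939) and UGT2B11 at -1.03 (0.00578). Lower with an antiandrogen is not the direction that the list's name implies. The ligand was at 0.17, -0.24 and -0.10 for these, none of them called. Both contrasts use the same vehicle libraries.

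Sterol synthesis genes were the list with the highest share of called members among the 25 lists. Of 25 members 18 were higher with the ligand and none was lower, against 1.37% and 0.667% of all genes, and 7 were not called. Neither DESeq2 nor limma-voom called a member lower, and none was lower at an unadjusted p under 0.05. The median log2 fold change was 0.42, and 24 of the 25 were above 0. Levels of 22 members were higher in every ligand library than in any enzalutamide library (6.56% of all genes). The mean log2 CPM over the list was 6.47, 6.38 and 6.32 in the ligand libraries, 5.99, 5.94 and 5.91 in the enzalutamide libraries, 5.96, 5.93 and 5.94 in the vehicle libraries and 7.30, 7.17 and 7.19 in the degrader libraries. Enzalutamide thus lay with vehicle on this list, and the ligand between vehicle and the degrader.

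INSIG1, the sterol-dependent brake on SREBP release, was at 76, 65.1 and 68.6 CPM with the ligand and 36.6, 37.8 and 35.5 CPM with enzalutamide. The groups were well apart, with vehicle at 40.3 ± 0.433 and the degrader at 228 ± 14.3 CPM, and the log2 fold change was 0.93 (SE 0.06, adjusted p = 6.97e-08). SREBF2, which encodes the SREBP that drives sterol genes, was at 419, 434 and 398 CPM and 338, 308 and 322 CPM (0.37, SE 0.05, 0.000355). STARD4, a cytosolic sterol carrier, was at 38, 30.9 and 42.1 CPM and 22.8, 23.4 and 24.7 CPM (0.64, 0.000807), with ligand replicate 2 lower than its fellows but above all enzalutamide libraries.

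The promoters of SREBF2 and INSIG1 are shown because both genes are regulators of this pathway and moved together with its enzymes. Each stretch is the 250 bases before the annotated start, from RefSeq on GRCh38.p14, plus strand, written 5′ to 3′. Capitals mark matches to TCACNCCAC, a core of the sterol regulatory element, or to TCACGTGA, an extended E-box.
SREBF2, chr22:41832855-41833104: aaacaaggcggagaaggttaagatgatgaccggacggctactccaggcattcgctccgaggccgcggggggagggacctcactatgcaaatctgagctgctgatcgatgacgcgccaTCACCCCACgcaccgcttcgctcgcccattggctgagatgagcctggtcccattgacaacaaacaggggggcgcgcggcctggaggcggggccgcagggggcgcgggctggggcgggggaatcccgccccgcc
INSIG1, chr7:155297628-155297877: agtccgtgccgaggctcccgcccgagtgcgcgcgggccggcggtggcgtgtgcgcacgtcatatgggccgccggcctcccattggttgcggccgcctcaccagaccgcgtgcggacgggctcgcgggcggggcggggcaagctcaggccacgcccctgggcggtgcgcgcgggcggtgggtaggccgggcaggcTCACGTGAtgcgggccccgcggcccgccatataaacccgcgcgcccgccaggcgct
On both strands, TCACNCCAC was found in this window in 310 of 35116 promoters (0.883%), and its match in SREBF2 begins 133 bases before the start. TCACGTGA was found in 300 (0.854%), and its match in INSIG1 begins 56 bases before the start. Of the 25 sterol synthesis members 18 had a promoter in the table, and each motif was found in 1 of those. A match is a description of the letters and not a measured binding site.

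The enzymes of the mevalonate pathway were higher from its first steps. ACAT2, which joins acetyl units, was at 0.49 (0.000664). HMGCS1, the next enzyme, was at 194, 170.2 and 183 CPM with the ligand and 102, 104 and 95.5 CPM with enzalutamide (0.86, SE 0.06, 1.47e-07), with vehicle at 110.1 ± 6.75 and the degrader at 692 ± 38.4 CPM. MVK, the mevalonate kinase gene, was at 0.54 (0.000975) and IDI1, an isomerase gene, at 0.54 (0.000235). Between them, PMVK at -0.05 (-0.20 to 0.11), MVD at 0.38 (0.15 to 0.61) and, after them, FDPS at 0.20 (0.08 to 0.31) were not called by edgeR, while DESeq2 called MVD (adjusted p = 0.0161) and FDPS (0.0284). MVD was at 53.9, 55.4 and 41.7 CPM with the ligand and 43.6, 35.1 and 37.5 CPM with enzalutamide, and without its lowest ligand library, replicate 3, the difference was 0.50 (adjusted p = 0.00442). FDPS, too, was called without ligand replicate 3 (0.25, adjusted p = 0.0209).

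In the branch that leads to cholesterol, FDFT1, the squalene synthase gene, was at 0.42 (0.000442). SQLE, squalene epoxidase, was at 58.8, 52.3 and 54.1 CPM with the ligand and 33.3, 34.4 and 31.2 CPM with enzalutamide, against 33.4 ± 1.46 CPM with vehicle (0.74, SE 0.06, 8.6e-07). LSS, which closes the sterol rings, was at 0.43 (0.000625). MSMO1, a sterol methyl oxidase, was at 90.3, 74.8 and 85.7 CPM and 48.9, 54.3 and 49.8 CPM (0.71, SE 0.07, 7.2e-06). Ligand replicate 2 was the lowest ligand library for INSIG1, HMGCS1, SQLE, MSMO1, IDI1 and STARD4 and still lay above all enzalutamide libraries. HSD17B7 was at 0.47 (0.00291) and DHCR7, a sterol reductase, at 0.39 (0.00125). CYP51A1, a demethylase, was at 0.25 and EBP, an isomerase, at 0.30. The adjusted p of CYP51A1 was 0.0595, 0.0599 and 0.0583 without ligand replicate 1 and enzalutamide replicates 1 and 3. That of EBP was 0.0701, 0.0787, 0.0895 and 0.0747 without ligand replicates 1 and 2 and enzalutamide replicates 2 and 3. NSDHL, TM7SF2 and SC5D were not called by edgeR, at 0.16, 0.11 and 0.25. SC5D was called by DESeq2 (adjusted p = 0.0171) and by edgeR without ligand replicate 2 (0.31, adjusted p = 0.0168).

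Per length, SREBF2 was more abundant than INSIG1, at 161 ± 3.95 TPM with the ligand and 126 ± 4.43 TPM with enzalutamide, with INSIG1 at 47.7 ± 3.50 and 25.3 ± 0.841 TPM. Against vehicle, 17 of the 25 sterol genes were higher with the ligand (0.203% of all genes) and none lower (0.0339%), with a median of 0.45. The count of higher members was 10 without vehicle replicate 2 or 3 and 9 without ligand replicate 1. With enzalutamide none was called in either direction by edgeR (0.35% and 1.09%), DESeq2 or limma-voom, with a median of -0.03, and 2 were higher and 2 lower at an unadjusted p under 0.05. The vehicle libraries are common to both contrasts.

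**Figure D3:**
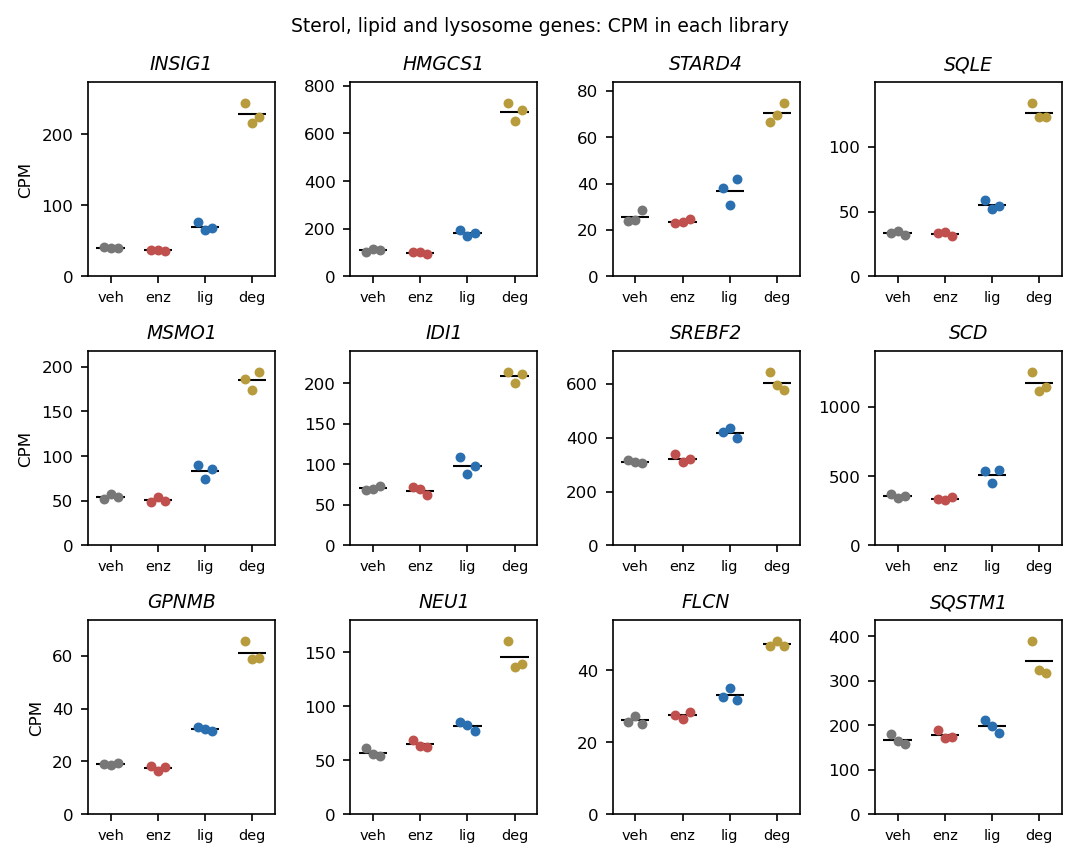
CPM in each library (points) and group mean (line) for 8 sterol and lipid genes, 3 lysosome genes and SQSTM1 under vehicle (veh), enzalutamide (enz), the ligand (lig) and the degrader (deg), on linear axes from 0. For INSIG1 to SCD and for GPNMB the ligand points lie above vehicle and enzalutamide and below the degrader, while for SQSTM1 ligand and enzalutamide points overlap.

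Genes of fatty acid synthesis were higher for 7 of 18 members (1.37% of all genes) and lower for none (0.667%), also by DESeq2, limma-voom and at an unadjusted p under 0.05, with a median of 0.20. SCD, the stearoyl-CoA desaturase gene, was at 535, 452 and 541 CPM with the ligand and 333, 329 and 347 CPM with enzalutamide (0.60, SE 0.06, adjusted p = 2.39e-05). FADS1 and FADS2, desaturases of polyunsaturated fatty acids, were at 0.30 (0.000432) and 0.39 (0.00166). For these 3 the vehicle means of 355, 154 and 61.1 CPM lay near enzalutamide, as for the sterol genes. ELOVL5, a fatty acid elongase gene on the androgen-response list, was at 294, 272 and 306 CPM and 190.2, 202 and 192 CPM (0.58, 1.69e-06), with vehicle, at 293 ± 7.24 CPM, near the ligand. ACSL3, an acyl-CoA synthetase on both lists, was likewise near its vehicle level with the ligand (0.34, 0.00367). FASN, fatty acid synthase, was at 1231, 1467 and 1242 CPM with the ligand and 1013, 908 and 1006 CPM with enzalutamide, with vehicle between them at 1179.6 ± 15.8 CPM (0.43, 0.00165). SREBF1, the gene of the SREBP that drives fatty acid genes, was at 0.23 (0.0275), and its adjusted p was 0.0903, 0.102, 0.0857 and 0.14 without ligand replicates 1 and 2 and enzalutamide replicates 1 and 2.

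The ligand is described as activating autophagy. Of 32 genes of the autophagosome core and of 23 ATG8 family and cargo receptor genes, 0 differed by edgeR, against 2.04% of all genes, with medians of 0.02 and 0.05. At an unadjusted p under 0.05, 2 members of each list were higher and none was lower, and DESeq2 and limma-voom called none. SQSTM1, the gene of the cargo receptor p62, was at 211, 199 and 182 CPM with the ligand and 189, 172 and 173 CPM with enzalutamide, so the groups overlapped (0.15, 95% confidence interval -0.01 to 0.31, adjusted p = 0.604). MAP1LC3B, an ATG8 family gene, was at 82.3, 78.5 and 78.4 CPM and 72.2, 76.6 and 73.2 CPM (0.11, 0.01 to 0.20, 0.425). GABARAPL1, another member of that family, was at 14.1, 12.8 and 11.8 CPM and 13.9, 13.1 and 13 CPM (-0.05, -0.23 to 0.14, 0.976). The intervals of these 3 genes leave room for differences of at most 0.31 on the log2 scale in favour of the ligand. That bound does not cover the other members. The largest log2 fold change was 0.20 in the autophagosome core list and 0.43 in the ATG8 family and cargo receptor list. Vehicle was at 167 ± 12.2, 77.4 ± 1.82 and 12.6 ± 1.18 CPM for these genes. Against vehicle, SQSTM1 was at 0.24 with the ligand (95% confidence interval 0.08 to 0.41, edgeR adjusted p = 0.392). With enzalutamide it was at 0.09 (-0.07 to 0.25, 0.746), from the same vehicle libraries. The degrader libraries were higher for all 3 genes, at 343 ± 39.3, 131 ± 2.88 and 22.6 ± 2.09 CPM.

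Of 51 lysosome and TFEB network genes, 5 were higher with the ligand (1.37% of all genes) and none was lower (0.667%), with a median of 0.06. No member was lower by DESeq2, limma-voom or at an unadjusted p under 0.05. GPNMB, a lysosomal glycoprotein gene, was at 33.1, 32.2 and 31.4 CPM with the ligand and 18.2, 16.2 and 18.1 CPM with enzalutamide, against 19 ± 0.399 CPM with vehicle and 61.2 ± 3.68 CPM with the degrader (0.88, SE 0.06, 1.37e-07). The groups did not overlap, and GPNMB kept its call without any 1 of the 6 libraries. NEU1, a lysosomal sialidase gene, was at 85.4, 83 and 76.9 CPM and 68.5, 63.2 and 62.2 CPM (0.34, 0.0102). FLCN, which encodes folliculin, was at 0.26 (0.0145), and the GTPase genes RRAGD and RRAGC, whose products act with folliculin in nutrient sensing at the lysosome, were at 0.31 (0.00628) and 0.25 (0.0469). Each of these last 4 lost its call in some fits with 1 library left out. Over all such fits the log2 fold changes were 0.31 to 0.39 for NEU1 and 0.22 to 0.30 for FLCN. They were 0.27 to 0.37 for RRAGD and 0.19 to 0.29 for RRAGC. The adjusted p of NEU1 was 0.0749, 0.0534 and 0.0672 without ligand replicate 1 and enzalutamide replicates 2 and 3, and that of FLCN 0.0682, 0.051 and 0.0838 without ligand replicate 2 and enzalutamide replicates 1 and 2. That of RRAGD was 0.0514 without ligand replicate 1. That of RRAGC was 0.186, 0.0775, 0.0815, 0.22 and 0.0802 without ligand replicates 1, 2 and 3 and enzalutamide replicates 1 and 3. The count of called members was 2 without ligand replicate 1, and 3 without ligand replicate 2 or any 1 enzalutamide library.

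**Figure D4:**
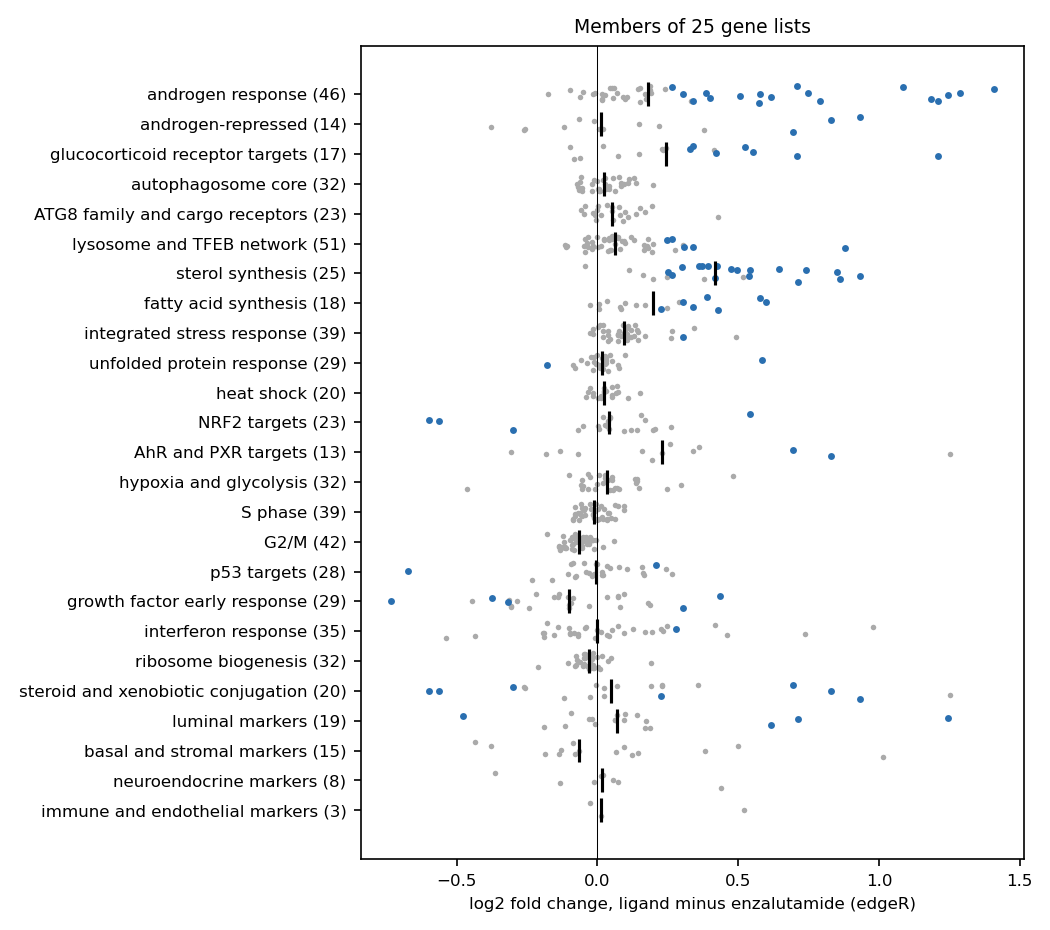
Log2 fold change, ligand minus enzalutamide, of the tested members of 25 gene lists, with the number tested in brackets. Blue points are members with an adjusted p under 0.05 by edgeR, grey points the rest, and black bars the list medians, which reach 0.42 for sterol synthesis and lie near 0 for most lists.

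Among the genes lower with the ligand, several of the largest falls chosen by the naming rule were in genes whose ligand level lay near that of vehicle, with enzalutamide above both. BAMBI, a pseudoreceptor that dampens transforming growth factor beta signalling, was at 4.15, 3.95 and 3.63 CPM with the ligand and 7.99, 7.53 and 7.64 CPM with enzalutamide. The groups did not overlap, vehicle was at 4.10 ± 0.228 CPM, and the log2 fold change was -0.98 (SE 0.09, adjusted p = 3.85e-06). SPOCK2, a proteoglycan gene of the extracellular matrix, was at 41, 41.7 and 35.5 CPM and 67.8, 63 and 62.3 CPM (-0.70, 9.2e-06), and EVX1, a homeobox gene, at 6.0, 5.51 and 5.01 CPM and 9.15, 9.92 and 9.09 CPM (-0.77, 0.000108). For both, the ligand lay at the vehicle level of 41.1 ± 1.61 and 5.21 ± 0.568 CPM. NFKBIZ, an inhibitor-of-NF-kappaB family gene, was at 24.2, 22.5 and 24 CPM and 37.6, 37.2 and 37.3 CPM (-0.66, 3.81e-07), with the degrader at 35.8 ± 0.479 CPM, near enzalutamide. TRIB1, a pseudokinase gene, was at 68.8, 68.7 and 69.9 CPM and 107, 110.4 and 105 CPM (-0.64, 8.87e-08). Its vehicle level of 79.5 ± 0.692 CPM lay between the agents, and the degrader was at 73.8 ± 1.78 CPM. SOD3, the extracellular superoxide dismutase gene, was at 6.47, 8.14 and 5.55 CPM and 10.9, 10.5 and 12.1 CPM (-0.73, 0.00205).

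Against vehicle, the enzalutamide differences were 0.91 for BAMBI, 0.64 for SPOCK2, 0.85 for EVX1, 0.58 for NFKBIZ, 0.44 for TRIB1 and 0.91 for SOD3, with adjusted p from 2.06e-06 for NFKBIZ to 0.000308 for SOD3. The ligand differences from the same vehicle libraries were -0.07, -0.06, 0.08, -0.09, -0.20 and 0.18, none of them called. Other falls had a vehicle level between the agents. INHBA, a subunit of activin and inhibin, was at 5.07, 4.48 and 5.58 CPM with the ligand and 7.85, 8.21 and 8.07 CPM with enzalutamide (-0.68, 0.000226), with vehicle at 6.37 ± 0.428 and the degrader, higher than either agent, at 10.7 ± 0.29 CPM. CCN3, a matricellular protein gene, was at 3.21, 2.43 and 2.52 CPM and 5.26, 5.11 and 4.79 CPM (-0.89, 0.00061). HLA-DQB2, a gene of the major histocompatibility complex with close paralogs, was at -0.64 (0.00165) and is uncertain where reads are shared. TMEM45A, a membrane protein gene, was at -0.60 (0.0142), and its adjusted p was 0.0756, 0.0599, 0.0604 and 0.0789 without ligand replicates 1 and 2 and enzalutamide replicates 1 and 3.

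**Figure D5:**
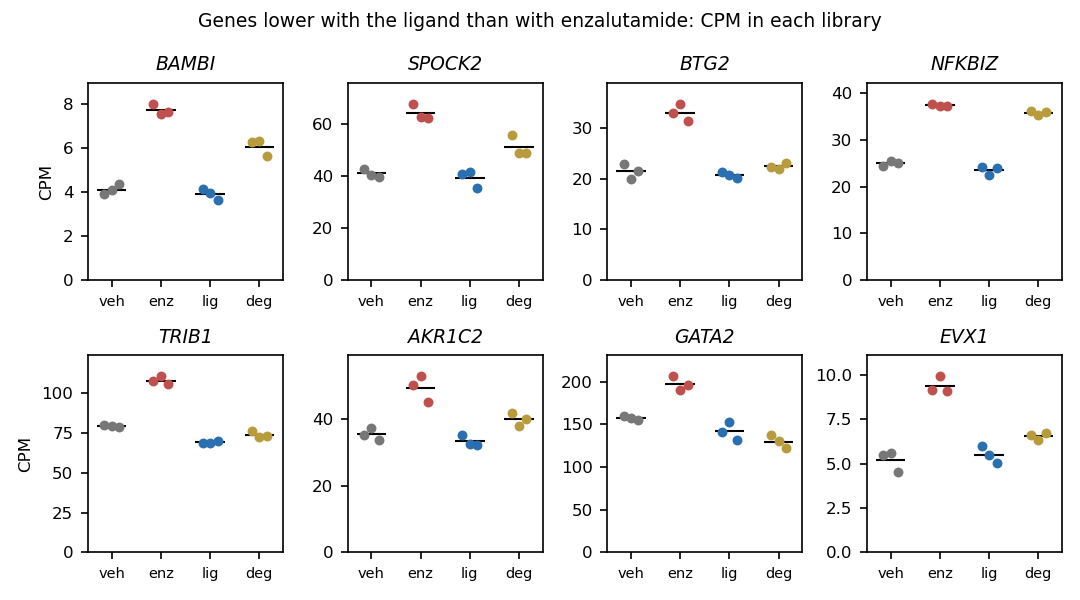
CPM in each library (points) and group mean (line) for 8 genes lower with the ligand than with enzalutamide, under vehicle (veh), enzalutamide (enz), the ligand (lig) and the degrader (deg), on linear axes from 0. Enzalutamide points lie above ligand and vehicle points in all 8 panels, and for NFKBIZ the degrader points lie near enzalutamide.

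Of 20 genes of steroid and xenobiotic conjugation, 4 were higher (1.37% of all genes) and 3 lower (0.667%), with a median of 0.05. The higher ones were the glucuronosyltransferase genes described above and RDH11, a retinol dehydrogenase gene, at 0.23 (0.00553). Their count was 2 without ligand replicate 1 or 3 or enzalutamide replicate 2. The lower ones were AKR1C1, AKR1C2 and AKR1C3, aldo-keto reductases that interconvert steroid hormones. AKR1C2 was at 35, 32.5 and 32.2 CPM with the ligand and 49.9, 52.6 and 45 CPM with enzalutamide (-0.56, SE 0.07, adjusted p = 5.61e-05). AKR1C1 was at 9.45, 9.15 and 8.61 CPM and 13.5, 14.7 and 13 CPM (-0.60, 0.000163), and AKR1C3 at 67.3, 63.9 and 62.5 CPM and 79.5, 81.7 and 77.1 CPM (-0.30, 0.00163). For all of them the ligand libraries were close to the vehicle means of 10, 35.3 and 65.4 CPM. The genes are paralogs with similar sequences, so reads may have been split between them.

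The AKR1C genes were also the lower members among 23 NRF2 targets, of which 3 were lower (0.667%) and 1 higher (1.37%), with a median of 0.04. The higher one, GCLC, the catalytic subunit for glutathione synthesis, was at 145, 142 and 155 CPM with the ligand and 101, 101 and 102 CPM with enzalutamide, against 151 ± 5.13 CPM with vehicle (0.54, 2.44e-06). The count of higher members was 2 without ligand replicate 2 or 3, and 3 by DESeq2. Among 13 AhR and PXR targets edgeR called 2 higher (1.37%), UGT1A1 and UGT1A3, and none lower (0.667%), with a median of 0.23. DESeq2 and limma-voom called none lower, and at an unadjusted p under 0.05 5 were higher and 1 lower. Without ligand replicate 1 or 3 or any 1 enzalutamide library the count of higher members was 1.

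Of 28 p53 targets 1 was lower (0.667%) and 1 higher (1.37%), with a median of 0.00. BTG2, an antiproliferative gene, was the lower one, at 21.3, 20.6 and 20.1 CPM with the ligand and 33, 34.7 and 31.4 CPM with enzalutamide, against 21.5 ± 1.45 CPM with vehicle (-0.67, 4.52e-06). The higher one, the death receptor gene TNFRSF10B, was at 0.21 (0.0243), and its adjusted p was 0.0747, 0.0591, 0.106 and 0.1 without ligand replicates 2 and 3 and enzalutamide replicates 1 and 2. Of 29 growth factor early response genes, 2 were higher (1.37%) and 3 lower (0.667%), with a median of -0.10. Levels of 10 members were lower in every ligand library than in any enzalutamide library (6.08% of all genes), and 2 were higher throughout (6.56%). DESeq2 called 5 lower. Without enzalutamide replicate 3 the count of lower members was 1, and without ligand replicate 1 or 2 or enzalutamide replicate 2 that of higher members was 1. IER3 was at 2.78, 2.82 and 2.85 CPM with the ligand and 4.62, 4.36 and 5.04 CPM with enzalutamide (-0.73, 0.00226), and KLF6, a zinc-finger factor, at 0.30 (0.00367). The transcription factor genes KLF4, EGR1 and ETV4 were at 0.44, -0.38 and -0.32. The adjusted p of KLF4 was 0.067, 0.0528 and 0.054 without ligand replicates 1 and 2 and enzalutamide replicate 2, and that of EGR1 0.062 without enzalutamide replicate 3. That of ETV4 was 0.12, 0.117, 0.121, 0.121 and 0.118 without ligand replicates 2 and 3 and enzalutamide replicates 1, 2 and 3.

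Of 29 unfolded protein response genes 1 was higher (1.37% of all genes) and 1 lower (0.667%), with a median of 0.02. ERO1B, an oxidase of the endoplasmic reticulum, was at 7.27, 6.21 and 8.12 CPM with the ligand and 4.40, 5.20 and 4.76 CPM with enzalutamide (0.59, 0.00544). XBP1, a transcription factor of this response, was at -0.18 (0.0483), and its adjusted p was 0.0998, 0.185, 0.0947, 0.273 and 0.125 without ligand replicates 2 and 3 and enzalutamide replicates 1, 2 and 3. Of 39 integrated stress response genes edgeR called 1 higher (1.37%), DDIT3, the gene of CHOP, at 0.31 (0.0182), and none lower (0.667%), with a median of 0.09. At an unadjusted p under 0.05, 10 were higher and none lower. Without ligand replicate 3 the count of higher members was 4, and DESeq2 called 2. The adjusted p of DDIT3 was 0.0975, 0.0787, 0.0716 and 0.109 without ligand replicates 1 and 2 and enzalutamide replicates 2 and 3. Of 35 interferon response genes 1 was higher (1.37%), B2M, the light chain of class I molecules, at 0.28 (0.0171, or 0.1 without ligand replicate 1 and 0.1 without enzalutamide replicate 3), with a median of 0.00.

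No member was called, by edgeR at an adjusted p under 0.05, among 42 G2/M, 39 S phase, 32 hypoxia and glycolysis, 32 ribosome biogenesis and 20 heat shock genes, against 2.04% of all genes. Medians were -0.06, -0.01, 0.03, -0.03 and 0.02. Members ranged from -0.46 to 0.48 for hypoxia and glycolysis, against -0.09 to 0.10 for S phase. The mean log2 CPM of the hypoxia and glycolysis list also differed within each agent, at 6.89, 6.47 and 6.73 with the ligand. With enzalutamide it was 6.90, 6.47 and 6.61, so the absence of calls says less about this list. Limma-voom called none, and DESeq2 called 1 G2/M gene lower. At an unadjusted p under 0.05, 8 G2/M genes were lower, 2 heat shock genes were higher, 1 ribosome biogenesis gene was higher and 1 lower, and there was none in the other lists. Of the G2/M genes 2 were above 0, and 12 were lower in every ligand library than in any enzalutamide library (6.08% of all genes), with none higher throughout (6.56%). UBE2C, a ubiquitin-conjugating enzyme gene of mitosis, was at 91, 93.3 and 87.4 CPM with the ligand and 98, 102 and 99 CPM with enzalutamide (-0.14, 95% confidence interval -0.23 to -0.04, adjusted p = 0.193). The groups did not overlap, but the difference did not pass the test.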

How the data were processed

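The authors deposited a gene table of raw read counts and TPM values for 12 libraries, per the file headers. The submitters' processing notes name HISAT2, StringTie and the build GRCh37; versions are not given in the sources used here. TPM values, which the authors scaled to length and library size, were used only for markers and levels between genes. Another 24 columns of per-sample values were not used. Of 18668 genes, 17702 passed edgeR's filterByExpr (minimum count 10, minimum total 15). Counts were scaled by TMM and fitted with edgeR 4.0.16 (R 4.3.3; robust quasi-likelihood, group term, 12 libraries, 8 residual degrees of freedom), and ligand minus enzalutamide was tested with Benjamini-Hochberg adjustment over all genes. Alternatives used DESeq2 1.42.0 and limma 3.58.1. The model was tested on data simulated from its own fitted spread, with changes placed in well counted genes. It recovered 83 of 100 genes changed 1.5-fold and 97 of 100 changed 2-fold, with 10 false calls. Smaller changes were not simulated.

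Named genes were 11 fixed ones, the called genes with the 12 highest and the 12 lowest log2 fold changes, provided the mean was 5 CPM or more in 1 group and the groups did not overlap, without uncharacterised symbols, small RNAs and read-through loci, and up to 4 called members of each of the 25 lists with the smallest p. Other genes, chiefly further members of the lists, were named after their values were seen. Of 662 list symbols 618 were tested. Some members that count among the lists are not reported here by name. Members and lists were chosen with earlier results of these data known. Counting error is small at these depths for well expressed genes and larger for genes near 1 CPM. The p-values rest on the spread between libraries, estimated from all 12 with information shared across genes. Promoters came from RefSeq on GRCh38.p14, and no coordinates of the files were used.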

Additional observations from a re-analysis of the deposited data

How the results depend on the processing

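The 361 genes called kept their direction under every alternative run. With DESeq2 size factors in edgeR 365 were called, with DESeq2 itself 489, with limma-voom 341, without a filter on low counts 355, and with only the 6 ligand and enzalutamide libraries 274, of which 71 were lower in place of 118. Leaving out 1 library, or 1 replicate number of all groups, gave 113 to 337 called genes, 94 to 240 higher, 19 to 97 lower and 17 to 25 past the fold minimum. Leaving out replicate 2 of all groups gave 11 called androgen-response, 9 sterol synthesis, 4 glucocorticoid receptor target, 3 fatty acid synthesis and 2 lysosome genes; over all alternatives these counts ranged from 11 to 21, 9 to 21, 4 to 8, 3 to 7 and 2 to 9. For lists with 1 to 4 called members in a direction, the counts in that direction ranged from 0 to 5. Where the main fit called no member in a direction, members were counted only for DESeq2 and limma-voom among the alternatives.

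With replicate number as a block, the 12-library fit called 613 genes, 403 higher and 210 lower, and SQSTM1 (adjusted p = 0.0323), UBE2C (0.048), MVD (0.00152), FDPS (0.00133) and SC5D (0.00931) were then called. The 6-library fit with the block called 313, among them DDIT4 (log2 fold change 0.51, adjusted p = 0.000358). Over all genes tested, deviations of same-numbered enzalutamide and ligand libraries correlated at 0.0951, -0.0323 and 0.0871. The numbers were therefore not taken to pair the samples. Some genes still followed the number. The mean log2 CPM of the hypoxia and glycolysis list in replicates 1, 2 and 3 was 7.18, 6.74 and 6.92 with vehicle. It was 6.90, 6.47 and 6.61 with enzalutamide, 6.89, 6.47 and 6.73 with the ligand and 6.77, 6.45 and 6.47 with the degrader. Leaving out single libraries in the contrasts with vehicle, and all alternatives for genes named outside the rule, were chosen after seeing the data. The cause was not tested for any of these changes. Genes below about 5 CPM had wide intervals, which limits what can be said of them.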

Other observations

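The genes here were chosen after their values were seen. MT1G, a metallothionein gene, was at 29.3, 24.1 and 21.4 CPM with the ligand, 15.5, 15.7 and 12.5 CPM with enzalutamide and 14.1 ± 1.38 CPM with vehicle (log2 fold change 0.78, edgeR adjusted p = 0.0154), with the degrader at 55.2 ± 10.9 CPM. Its adjusted p was 0.0505, 0.0524 and 0.0561 without ligand replicate 2 and enzalutamide replicates 1 and 3. ABCG1, a cholesterol exporter known as a target of the oxysterol-sensing liver X receptors, was lower with the ligand, at 0.869, 1.11 and 0.966 CPM against 2.11, 1.74 and 2.11 CPM with enzalutamide (-1.02, SE 0.17, 0.00225). Against the vehicle level of 1.81 ± 0.126 CPM the ligand was at -0.88 (0.039) and enzalutamide at 0.14 (0.825), and the degrader was at 0.524 ± 0.117 CPM. The ligand call against vehicle did not hold without any 1 vehicle library (0.0952, 0.135 and 0.222 without replicates 1, 2 and 3) or ligand library (0.246, 0.0806 and 0.0809). TXNIP, a glucose-responsive arrestin-like gene, was lower with the ligand, at 388, 356 and 379 CPM against 452, 475 and 447 CPM (-0.29, 0.00306), with vehicle at 480.2 ± 9.49 CPM. HLA-DMB, of the class II antigen pathway, was at 8.42, 7.19 and 7.34 CPM with the ligand and 10.3, 10.1 and 10.7 CPM with enzalutamide (-0.44, 0.00424), with vehicle at 10.3 ± 0.26 CPM.

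MAOA, which oxidises monoamines, was at 160.1, 153 and 165 CPM with the ligand and 101, 105 and 104 CPM with enzalutamide (0.63, 9.69e-08), with vehicle at 164 ± 1.96 CPM. IGF1R, the receptor for the IGF1 product, was at 30.4, 33.4 and 32.5 CPM and 23.8, 23.2 and 26.4 CPM (0.39, 0.000975), with vehicle at 34.5 ± 1.08 CPM. HOXC12, a homeobox gene, was lower with the ligand, at 35.3, 34.5 and 33.1 CPM against 43.5, 43.6 and 42.6 CPM (-0.33, 0.00116), with vehicle at 32.7 ± 1.25 CPM.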
